A study of Homo sapiens with 12 samples.

Results

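Blue-irradiated HaCaT cells were compared with cells kept in the dark at the last of 3 sampling points, when 42 irradiations had been given. HaCaT is a spontaneously immortalised line of human skin keratinocytes, labelled wild-type. The comparison rests on 4 of the 12 libraries, 2 (a and b) of irradiated cells, here blue_42, and 2 of dark cells, here dark_42, and takes in every gene with enough counts. The blue_42 cells had been lit at 408 nm, 4.6 mW per cm2 and 50 J per cm2 a session, in saline, with 3 sessions a week over at most 14 weeks, a dose the submitters set by its lethality. The dark_42 cells carry the label of a control matched to 42 irradiations. The earlier dark columns, 2 libraries each of dark_3 and dark_14, served as the point from which either group could have moved. All groups are 1 cell line grown in the same serum-containing medium, and the labels do not say whether a and b are separate cultures or whether dark cells were also held in saline.

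Light near 408 nm is absorbed by porphyrins and flavins, and the reactive oxygen species so made can damage membranes, mitochondria and DNA. Keratinocytes meet such stress with antioxidant, repair and inflammatory programmes, and they also carry innate antiviral sensors that raise interferon-stimulated genes. In a long culture both irradiated and dark cells can drift from their starting state, so a difference between them at the last point can come from a departure of either one.

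QuantSeq 3' libraries gave 7823533 and 8183941 counts in blue_42 and 7666289 and 7262303 in dark_42. Earlier dark libraries held 3561392 to 7950222 counts. All 10 keratinocyte markers examined were detected. Their sums in CPM (counts relative to a common library total) were 5290 and 4960 in blue_42 and 4570 and 4180 in dark_42. These sums did not overlap, and the earlier dark libraries summed to 5330 to 5720 CPM. Marker sums use plain library totals, while CPM of single genes below use TMM-scaled totals. Of the melanocyte markers MLANA, TYR and TYRP1 were at 0 in all 4 libraries, and the melanocyte list summed to 12.4 and 12.6 CPM in blue_42 and 14.6 and 16.7 CPM in dark_42, without overlap. Glial markers summed to 201 and 207 CPM in blue_42 and 158 and 177 CPM in dark_42, also without overlap, with MOG and OLIG2 at 0. The part of these markers in the results was not tested. Leukocyte markers summed to 1.79 to 4.13 CPM. Neuronal markers summed to 132 and 110 CPM in blue_42 and 138 and 98.6 CPM in dark_42, and fibroblast markers to 57.8 and 76.4 against 56.9 and 78.8 CPM. Between a and b, counts differed by more than counting noise: chi-square divided by its degrees of freedom was 6.43 in blue_42 and 8.57 in dark_42, the highest of the 6 groups. In dark_3 it was 1.64, the lowest. The tests below estimate the spread of each gene from all 6 groups together, so the compared groups borrow from tighter ones.

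Of 12878 tested genes, 158 were called at an edgeR adjusted p under 0.05, which is 1.23% of those tested. Of these, 108 (0.839%) were higher and 50 (0.388%) lower in blue_42. All 158 had libraries that did not overlap between the groups, as did 42.2% of all tested genes, and 13.3% of tested genes had an unadjusted p under 0.05. Single libraries weighed heavily on this number. Leaving out dark_42 a gave 235 calls, while leaving out dark_42 b gave 35, blue_42 a 32, blue_42 b 24 and either dark_3 library 99. The 13 genes called in all 12 fits that left out 1 library included SFRP1, OLFM4, CALD1, LCP1, PTK7, IGSF9, MED24 and CTDNEP1, which were higher, and B3GALT5, SFMBT2, IL7R and OASL, which were lower. Every other called gene lost its call in at least 1 of these fits: 127 lost it without blue_42 a, 135 without blue_42 b, 51 without dark_42 a, 128 without dark_42 b and 59 without either dark_3 library. No called gene changed direction in any of them. In bulk RNA, fewer cells of a kind and less RNA per cell cannot be told apart.

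In most of the called genes dark_42 was the group that had departed from earlier dark. Against the mean of dark_3 and dark_14, dark_42 had 1582 called genes (12.3% of those tested) and blue_42 had 454 (3.53%). This order rested on dark_42 b: without it dark_42 had 480 and blue_42 598, while without each of the other 11 libraries dark_42 had the more. Among the 158 genes, dark_42 alone departed in 114 (72.2%), blue_42 alone in 17 (10.8%), both in 8 (5.06%) and neither in 19 (12%). Over all tested genes the same classes held 9.98%, 1.22%, 2.31% and 86.5%. A gene called between blue_42 and dark_42 has to lie away from earlier dark in at least 1 of them more often than others. The split between the groups can follow in part from that choice too. Over all tested genes the median difference from earlier dark, sign aside, was 0.21 in dark_42 and 0.15 in blue_42. Choosing large differences thus favours genes with a far dark_42, and the shares are given as a description. Of genes that departed in 1 group only, the group was dark_42 in 114 of 131 called genes (87%) and in 1285 of 1442 tested genes (89.1%). By this rule the split was alike among called and all tested genes, and by the 2 rules given next, distance and levels, dark_42 took a larger share of the called genes than of all tested ones.

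**Figure D1:**
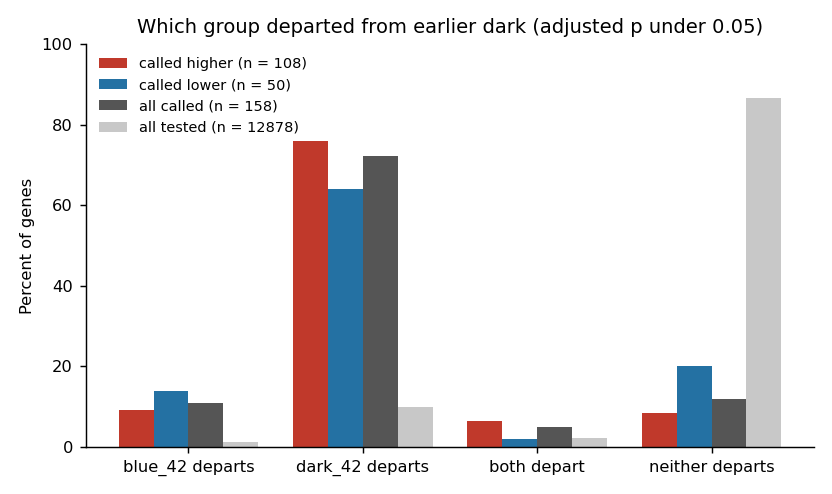
Percent of genes in each departure class (vertical axis) for genes called higher in blue_42, called lower, all called and all tested, with departure set by an edgeR adjusted p under 0.05 against the mean of dark_3 and dark_14. The bar for dark_42 reaches 72.2% of all called genes, while 86.5% of all tested genes departed in neither group.

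By distance alone, the dark_42 mean lay farther from earlier dark than the blue_42 mean in 128 of 158 called genes (81%) and in 60.3% of all tested genes, and the blue_42 mean lay farther in the other 30 called genes (19%) and in 39.7% of all tested genes. This share fell to 62.5% without blue_42 b, 65.6% without blue_42 a and 65.7% without dark_42 b, where all tested genes stood at 60%, 51.9% and 59.6%. By levels, where both libraries of a group had to lie beyond all 4 earlier dark libraries, dark_42 alone departed in 80 called genes, blue_42 alone in 17, both in 45 and neither in 16. The background of this second rule was 17.6%, 8.51%, 10.7% and 63.2% of all tested genes.

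The direction of each departure was then set beside the calls. Of the 108 genes higher in blue_42, dark_42 lay below earlier dark in 100 and was called below it in 86, where 6.39% of all tested genes were. The median of these 108 genes was 0.01 for blue_42 and -0.71 for dark_42, as log2 differences from earlier dark. Of the 50 genes lower in blue_42, dark_42 lay above earlier dark in 46 and was called above it in 33, where 5.89% of all tested genes were. Their median was -0.21 for blue_42 and 0.62 for dark_42, and blue_42 was called below earlier dark in 8 of them, where 1.3% of all tested genes were. Over all tested genes the median size of the difference from earlier dark, sign aside, was 0.15 in blue_42 and 0.21 in dark_42. These comparisons share libraries with one another, so the values are set side by side without a test. The genes were chosen by the blue_42 minus dark_42 difference. A low dark_42 in the higher genes thus follows in part from the choice. So does a high dark_42 or a low blue_42 in the lower genes.

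**Figure D2:**
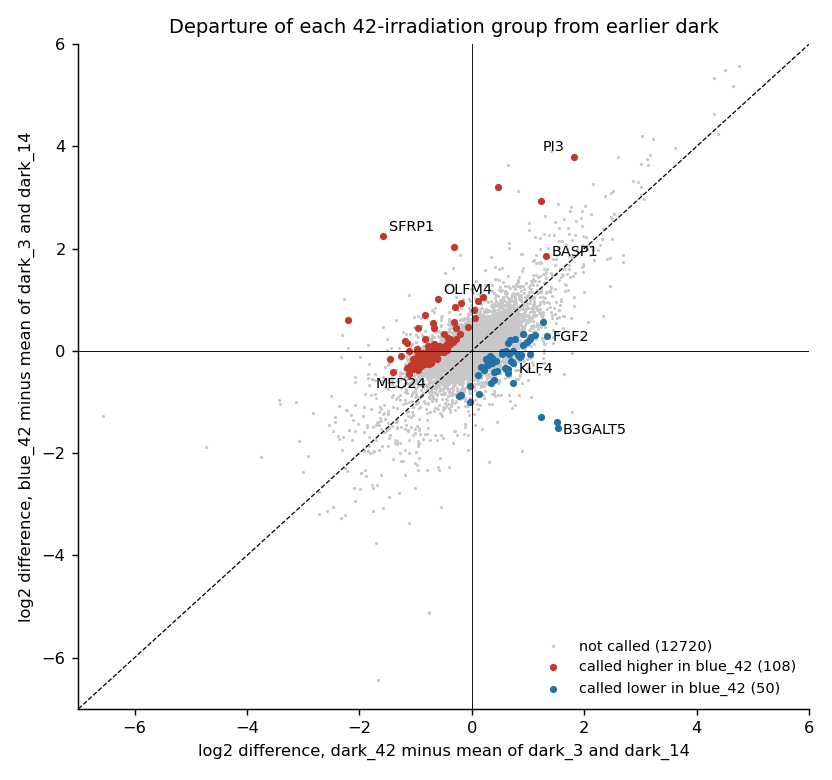
Log2 difference of dark_42 (horizontal) and of blue_42 (vertical) from the mean of dark_3 and dark_14, 1 point per tested gene, with genes called higher in blue_42 in red, called lower in blue and the rest in grey. Most red points lie left of 0 and near 0 vertically, with medians of -0.71 and 0.01, and SFRP1 and B3GALT5 lie away from 0 on both axes.

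Functions were counted over the 158 called genes only, so counts by function have no share over all tested genes. They stand beside 108 of all 158 called genes higher in blue_42 and 114 with dark_42 alone departing. Among genes of growth factors, receptors and their signalling, 14 were called higher and 9 lower in blue_42. SFRP1 (ENSG00000104332), which encodes a secreted protein that binds Wnt ligands and keeps them from their receptors, had the largest difference of all genes above 10 CPM. It stood at 45.2 and 55.7 CPM in blue_42, against 3.46 and 3.64 CPM in dark_42, with dark_3 at 16.3 and 18.6 CPM and dark_14 at 5.73 and 6.90 CPM. The dark libraries thus held less SFRP1 at each later point while blue_42 lay above every dark library, and the log2 difference was 3.82 ± 0.19 (± SE here and below, edgeR adjusted p = 7.41e-11). Both groups departed from earlier dark, blue_42 by 2.24 upward (edgeR adjusted p = 1.7e-09) and dark_42 by -1.58 (edgeR adjusted p = 5.5e-05). The gene lies on chromosome 8 from 41261958 to 41309497 on GRCh38, minus strand.

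PTK7, a pseudokinase that takes part in Wnt and planar polarity signalling, was the other called member among 32 tested Wnt genes. It stood at 97.9 and 98.9 CPM in blue_42, against 45.3 and 45.6 CPM in dark_42, with 87.4 to 125 CPM in the 4 earlier dark libraries. Here blue_42 lay within the earlier dark range and dark_42 below it (log2 difference 1.11 ± 0.15, edgeR adjusted p = 0.000625). The Wnt list had a median log2 difference of 0.09, against -0.003 over all tested genes.

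BMP3, a BMP family ligand that antagonises other BMPs, had 6.20 and 8.74 CPM in blue_42, against 15.5 and 23 CPM in dark_42. Its earlier dark libraries held 8.24 to 18.3 CPM, so each group touched that range. The log2 difference was -1.36 ± 0.22 (edgeR adjusted p = 0.00275), and the call was lost without dark_42 b or blue_42 a, over a range of -1.63 to -1.05. TGFBR3, a co-receptor for TGF-beta, had 5.55 and 4.86 CPM in blue_42, against 11.7 and 10.7 CPM in dark_42 and 3.60 to 8.43 CPM in earlier dark (log2 difference -1.10 ± 0.22, edgeR adjusted p = 0.0152). These 2 were the called members among 37 tested BMP and TGF-beta genes, whose median was 0.01.

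FGF2, a growth factor for epithelial and mesenchymal cells, had 11.4 and 11 CPM in blue_42, against 19.9 and 26.4 CPM in dark_42. Earlier dark libraries held 6.34 and 5.33 CPM at dark_3 and 12 and 15.7 CPM at dark_14. Its level in dark libraries was higher at each later point, and dark_42 alone departed, by 1.34 (edgeR adjusted p = 2.5e-05). IL7R, the interleukin-7 receptor, followed the same form with 82.0 and 95.7 CPM in blue_42, against 153 and 179 CPM in dark_42, and 65.8 to 140 CPM in earlier dark. Its log2 difference was -0.90 ± 0.13 (edgeR adjusted p = 0.000888).

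In 5 signalling genes blue_42 alone departed. SH3KBP1, an adaptor in receptor endocytosis, had 79.3 and 94.1 CPM in blue_42, against 50.5 and 45.4 CPM in dark_42 and 41.8 to 48.4 CPM in earlier dark. EFNA1, an ephrin ligand, had 100 and 101 CPM in blue_42, against 61.7 and 46.7 CPM in dark_42 and 53.6 to 91.1 CPM in earlier dark. In both genes dark_42 lay close to or within the earlier dark range and blue_42 lay above it. PPM1L, a protein phosphatase, had 9.30 and 7.41 CPM in blue_42, against 15.8 and 16.9 CPM in dark_42 and 7.93 to 26.6 CPM in earlier dark. SASH1, a signalling scaffold, had 10.2 and 11 CPM in blue_42, against 19.98 and 21.6 CPM in dark_42 and 15.7 to 17.8 CPM in earlier dark. In SASH1 every blue_42 library lay below and every dark_42 library above the earlier dark range, while PPM1L had a wide earlier dark range that held dark_42. PPP4R4, a phosphatase regulatory subunit, stood below 4 CPM in every library shown here and had 3.36 and 3.76 CPM in blue_42, against 0.384 and 0.65 CPM in dark_42. CAMK4, a calcium-dependent kinase, was as low, with 3.49 and 2.19 CPM in blue_42, against 0.384 and 0.39 CPM in dark_42. Its earlier dark libraries held 1.58 to 2.38 CPM, and in CAMK4 dark_42 departed. By plain totals 3 counts equal 0.391 CPM in dark_42 a and 0.413 CPM in dark_42 b. The dark_42 levels of PPP4R4 and CAMK4 thus rest on few counts.

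Secreted defence proteins of epithelia gave 2 calls, both higher in blue_42, and in both genes each group departed from earlier dark. OLFM4, a secreted olfactomedin glycoprotein, had 36.9 and 39.3 CPM in blue_42, against 13.6 and 11.2 CPM in dark_42, with 14.4 to 27.5 CPM in earlier dark. Blue_42 lay above and dark_42 below every earlier dark library (log2 difference 1.62 ± 0.16, edgeR adjusted p = 7.81e-06). PI3, the elastase inhibitor elafin, had 74.1 and 110 CPM in blue_42, against 20.2 and 26.4 CPM in dark_42, with dark_3 at 2.06 and 1.15 CPM and dark_14 at 40.1 and 18.8 CPM. Its dark_42 level lay within the spread of dark_14, and the call (log2 difference 1.99 ± 0.36, edgeR adjusted p = 0.0476) was made in 4 of 12 fits without 1 library. They were the called members among 21 tested wound keratins, alarmins and antimicrobial genes, 19 of which had a positive log2 difference, with a median of 0.57. On that list edgeR called blue_42 above earlier dark in 9 genes (2.23% of all tested genes) and dark_42 in 5 (5.89%). Below earlier dark it called blue_42 in 0 (1.3%) and dark_42 in 3 (6.39%).

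**Figure D3:**
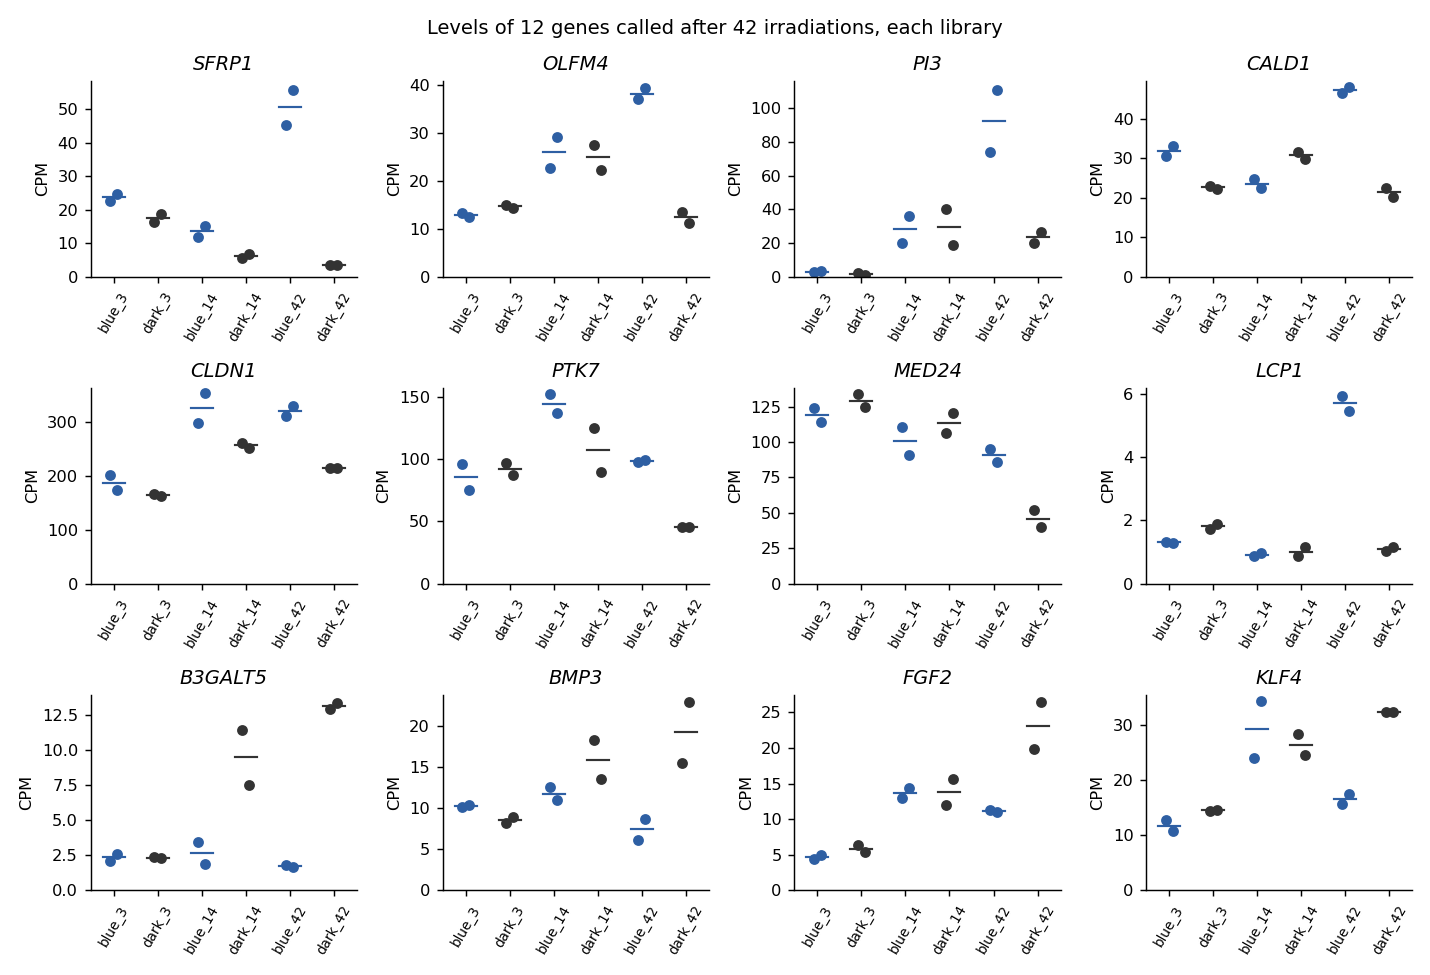
Levels in CPM (vertical axis, from 0) of 12 called genes in each library, by group and in order of irradiation number, with 1 point per library and a line at the group mean, blue groups in blue and dark groups in dark grey. SFRP1 stands at 45.2 and 55.7 CPM in blue_42 against 3.46 and 3.64 CPM in dark_42, while PTK7 and MED24 show a low dark_42.

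Antiviral genes formed the largest group by function among those lower in blue_42, with 12 called, all lower. The product of ISG15 is a ubiquitin-like protein attached to other proteins in the interferon response, HERC5 is the ligase that attaches it, and RIGI and IFIH1 are cytosolic RNA sensors. Type I interferon acts on such genes through the interferon-stimulated response element, a promoter motif bound by the ISGF3 complex and by interferon regulatory factors. Because all 12 were called lower, the promoters of 3 of them are shown. They come from RefSeq on GRCh38.p14 and span 250 bases before to 50 after the gene start. Each is written 5' to 3' in the direction of the gene. Capitals mark matches to the core of that element, GAAA and GAAA parted by any 2 bases, searched on both strands with overlaps allowed.
ISG15: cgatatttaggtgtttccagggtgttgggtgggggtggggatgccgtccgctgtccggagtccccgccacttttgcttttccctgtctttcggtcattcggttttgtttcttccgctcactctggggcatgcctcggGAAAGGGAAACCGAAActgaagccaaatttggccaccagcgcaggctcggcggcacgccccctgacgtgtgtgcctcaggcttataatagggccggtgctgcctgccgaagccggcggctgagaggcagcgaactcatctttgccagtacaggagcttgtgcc
IFIT3: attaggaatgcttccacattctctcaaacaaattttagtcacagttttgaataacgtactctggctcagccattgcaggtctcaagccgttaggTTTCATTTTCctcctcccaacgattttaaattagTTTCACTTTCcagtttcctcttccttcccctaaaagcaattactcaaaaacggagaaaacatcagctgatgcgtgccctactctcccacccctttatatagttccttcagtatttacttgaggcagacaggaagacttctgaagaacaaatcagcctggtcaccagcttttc
DDX60: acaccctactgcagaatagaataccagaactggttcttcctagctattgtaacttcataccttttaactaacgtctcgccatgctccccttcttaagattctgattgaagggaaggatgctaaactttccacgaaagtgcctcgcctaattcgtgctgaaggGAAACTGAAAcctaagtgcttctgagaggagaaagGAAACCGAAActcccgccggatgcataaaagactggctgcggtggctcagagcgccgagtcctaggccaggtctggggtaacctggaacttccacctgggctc
They lie on the plus strand at chr1:1013247-1013546 and chr10:89327747-89328046 and on the minus strand at chr4:168318703-168319002. The ISG15 promoter holds 2 overlapping matches, which begin 113 and 107 bases before the start. IFIT3 holds 2 that begin 156 and 122 bases before it, and DDX60 holds 2 that begin 88 and 53 bases before it. Of the 7 called lower genes of the interferon and sensor lists found in the promoter table, 6 held a match (85.7%), as did 17 of 32 tested list genes that were not called (53.1%). The share was 3.53% of 85 promoters of genes called higher and 2.84% of 10135 promoters of tested genes. RIGI, the remaining called gene, had no match in these 300 bases, which says only that these letters are absent from the window.

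ISG15 had 61.3 and 47.1 CPM in blue_42, against 128 and 89.5 CPM in dark_42, with 58.8 to 89.4 CPM in earlier dark. Of blue_42, a lay inside the earlier dark range and b below it, and dark_42 lay at or above the highest earlier dark library (log2 difference -1.01 ± 0.18, edgeR adjusted p = 0.012). OASL, an antiviral protein related to oligoadenylate synthetases, had 133 and 122 CPM in blue_42, against 242 and 209 CPM in dark_42. Its dark_3 libraries held 59.9 and 59.5 CPM and its dark_14 libraries 165 and 192 CPM, so both groups at 42 lay above dark_3 and only dark_42 lay above dark_14. RIGI had 48.2 and 46.4 CPM in blue_42, against 80.0 and 84.5 CPM in dark_42, with dark_3 at 29.5 and 29.2 CPM and dark_14 at 45.5 and 63.0 CPM. DDX60, a helicase that aids RNA sensing, had 215 and 239 CPM in blue_42, against 370 and 414 CPM in dark_42, with 116 to 352 CPM in earlier dark. HERC5 had 36.2 and 27.3 CPM in blue_42, against 63.3 and 58.7 CPM in dark_42, with 26.6 to 46.9 CPM in earlier dark. In RIGI, DDX60 and HERC5 the dark_42 libraries lay above every earlier dark library and the blue_42 libraries inside the earlier dark range.

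The other 7 antiviral genes were IFIT2 and IFIT3, which bind foreign RNA, IFI44, IFIH1, the zinc-finger RNA-binding protein ZC3HAV1, the helicase-like ZNFX1 and PLAAT4, an interferon-inducible acyltransferase. Their log2 differences ran from -0.91 ± 0.16 for IFI44 to -0.43 ± 0.10 for ZNFX1. Dark_42 alone departed from earlier dark in 10 of the 12, upward each time. PLAAT4 was the gene in which blue_42 alone departed, with 39.6 and 39.8 CPM in blue_42, against 58.0 and 60.7 CPM in dark_42. Its dark_3 libraries held 34.1 and 35.0 CPM and its dark_14 libraries 96.2 and 82.3 CPM. Both groups at 42 thus lay above dark_3 and below dark_14, inside the earlier dark range. ZC3HAV1 departed in neither group. Of 9 tested cytosolic nucleic acid sensors and adaptors, 2 were called lower, RIGI and IFIH1, where 0.388% of all tested genes were. On that list 4 genes had a positive log2 difference, at a median of -0.05. Of 42 tested interferon-stimulated genes, 7 were called lower (16.7%) and 0 higher, and 11 had a positive log2 difference. At an unadjusted edgeR p under 0.05, 15 were lower and 2 higher, and DESeq2 called 7 lower and 1 higher. The median log2 difference of these 42 genes was -0.22. Against earlier dark the median was 0.28 in blue_42 and 0.64 in dark_42, with 11 genes called above in blue_42 (2.23% of all tested genes) and 25 in dark_42 (5.89%). The number called lower was 1 without blue_42 b and 4 without blue_42 a, and the median then was -0.17 and -0.31.

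Mitochondrial genes gave 8 calls, all higher in blue_42. In each the dark_42 mean lay farther from earlier dark, as it did in 128 of all 158 called genes. MT-ND4, a complex I subunit encoded in mitochondrial DNA, had 10779 and 11893 CPM in blue_42, against 7068 and 7604 CPM in dark_42, with dark_3 at 8613 and 7490 CPM and dark_14 at 13036 and 9933 CPM. MT-ND5, another such subunit, had 5101 and 5366 CPM in blue_42, against 3664 and 3616 CPM in dark_42, with dark_3 at 4109 and 3871 CPM and dark_14 at 5432 and 4521 CPM. Which group departed thus turned on the earlier dark group. Against dark_14, dark_42 was lower, by -0.65 ± 0.14 in MT-ND4 and -0.45 ± 0.12 in MT-ND5 (edgeR adjusted p = 0.00712 and 0.0259), and blue_42 was not called. Against dark_3, blue_42 was higher, by 0.49 ± 0.14 and 0.39 ± 0.12 (edgeR adjusted p = 0.0268 and 0.0412), and dark_42 was not called. Of 15 mitochondrially encoded transcripts, 14 had a positive log2 difference and MT-ND4, MT-ND5 and MT-CO1 were called, at a median of 0.51. Against earlier dark the median was 0.10 in blue_42 and -0.39 in dark_42, with 8 called below in dark_42 (6.39% of all tested genes). For blue_42 edgeR and DESeq2 called 0, and 2 above and 1 below had an unadjusted edgeR p under 0.05. Between the groups DESeq2 called 9 of the 15 higher, and edgeR called 0 without dark_42 b, blue_42 a or blue_42 b, where the median ran from 0.45 to 0.52. Mitochondrial transcripts made up 15.4% and 13.8% of counts in blue_42, and 12.6% and 12.4% in dark_42.

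Over 53 nuclear-encoded respiratory chain genes the median log2 difference was -0.01. CHCHD10, a protein of the mitochondrial intermembrane space, MRPS21, a mitochondrial ribosomal protein, and GTPBP3, a tRNA-modifying enzyme, were higher by 0.52 ± 0.11, 0.53 ± 0.12 and 0.66 ± 0.14. MTATP6P1 was also called, but it is a near-identical nuclear copy of mitochondrial sequence and its counts cannot be told apart from those of MT-ATP6.

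**Figure D4:**
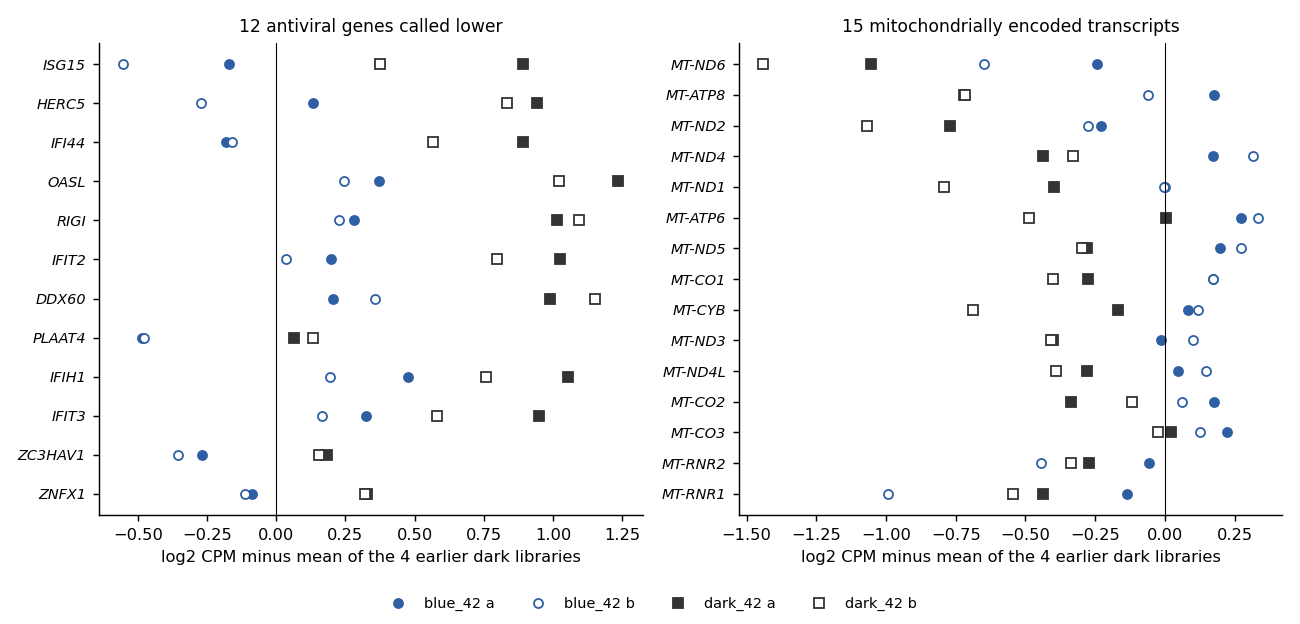
Level of each gene in the 4 libraries at 42 irradiations, as log2 CPM minus the mean of the 4 earlier dark libraries (horizontal axis), for the 12 called antiviral genes (left) and 15 mitochondrially encoded transcripts (right), with circles for blue_42 and squares for dark_42, filled for a and open for b. In the left panel every dark_42 square lies right of both blue_42 circles.

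Genes of adhesion, junctions and matrix gave 8 calls higher and 4 lower in blue_42. CLDN1, the tight junction protein claudin 1, had 311 and 331 CPM in blue_42, against 215 and 214 CPM in dark_42, with 163 to 262 CPM in earlier dark. Here dark_42 lay within the earlier dark range and blue_42 above it, and blue_42 alone departed, by 0.64 (edgeR adjusted p = 0.00037). Dark_3 held 167 and 163 CPM and dark_14 262 and 253 CPM. Against dark_3 alone both groups were called above it, and against dark_14 alone neither was called. GJA1, the gap junction protein connexin 43, had 20.01 and 11.5 CPM in blue_42, against 8.20 and 6.24 CPM in dark_42, with 6.59 to 16.4 CPM in earlier dark. Its log2 difference of 1.12 ± 0.25 ranged from 0.67 without blue_42 a, where the call was lost, to 1.47, and it also lost the call without dark_42 b. CDH2, N-cadherin, had 63.9 and 63.7 CPM in blue_42, against 46.2 and 43.0 CPM in dark_42, with 54.3 to 73.9 CPM in earlier dark.

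IGSF9, an immunoglobulin-family adhesion protein, had 19.0 and 20.6 CPM in blue_42, against 7.43 and 8.84 CPM in dark_42, with 19.2 to 28.5 CPM in earlier dark. FAT2, a giant cadherin of the epidermis, had 35.9 and 38.6 CPM in blue_42, against 23.2 and 22.6 CPM in dark_42, with 25.8 to 45.8 CPM in earlier dark. In both, only dark_42 lay outside the earlier dark range on the low side by a clear margin. CEACAM6, a cell surface adhesion glycoprotein, was lower, with 10.1 and 6.68 CPM in blue_42, against 16.1 and 16.4 CPM in dark_42 and 8.64 to 17.6 CPM in earlier dark, and departed in neither group. SPOCK1, a matrix proteoglycan, was lower too, with 16.5 and 16.1 CPM in blue_42, against 27.8 and 29.3 CPM in dark_42 and 10.3 to 17.6 CPM in earlier dark. Of 39 tested junction genes, 4 were called higher and 1 lower, at a median of 0.07.

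Cytoskeleton, centrosome and membrane traffic gave 13 calls higher and 4 lower, and held 5 of the 17 genes in which blue_42 alone departed. CALD1, the actin-binding caldesmon, had 46.5 and 48.1 CPM in blue_42, against 22.5 and 20.3 CPM in dark_42, with 22.2 to 31.5 CPM in earlier dark. Blue_42 lay above every earlier dark library and dark_42 at their lower end (log2 difference 1.14 ± 0.13, edgeR adjusted p = 4e-05). LCP1, the actin-bundling plastin best known in leukocytes, had 5.94 and 5.46 CPM in blue_42, against 1.02 and 1.17 CPM in dark_42, with 0.859 to 1.87 CPM in earlier dark. The leukocyte marker sums given above did not separate the groups. BASP1, a membrane protein linked to actin, had 124 and 140 CPM in blue_42, against 88.9 and 92.6 CPM in dark_42, with dark_3 at 27.1 and 24.2 CPM and dark_14 at 53.3 and 50.7 CPM. Both groups thus lay above all earlier dark libraries, blue_42 by 1.86 and dark_42 by 1.32 on the log2 scale.

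Blue_42 alone departed downward in EPB41L4A, a FERM-domain protein, and in LIMCH1, which activates non-muscle myosin. EPB41L4A had 15 and 13 CPM in blue_42, against 27.4 and 27.1 CPM in dark_42, with 17.9 to 32.6 CPM in earlier dark. LIMCH1 had 20.9 and 22.6 CPM in blue_42, against 33.2 and 36.3 CPM in dark_42, with 32.0 to 47.8 CPM in earlier dark. In both genes blue_42 lay below every earlier dark library.

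Other actin genes had a low dark_42 instead. TPM1, a tropomyosin, had 94.9 and 88.4 CPM in blue_42, against 62.8 and 67.6 CPM in dark_42, with 90.7 to 127 CPM in earlier dark. ACTN4, an actin cross-linker, and CAPZB, an actin-capping subunit, were higher in blue_42 by 0.53 ± 0.13 and 0.62 ± 0.13, and the formin FHOD1 by 0.82 ± 0.14, with dark_42 alone departing in each. Of 38 actin-binding and contractile genes, 3 were called higher, at a median of 0.12. Against earlier dark, edgeR called 12 of them below in dark_42 (6.39% of all tested genes) and 3 above (5.89%), and DESeq2 called 13 and 0. In blue_42 edgeR and DESeq2 each called 0 below (1.3% of all tested genes by edgeR) and 2 above (2.23%), and 6 lay below at an unadjusted edgeR p under 0.05. TUBB, a beta-tubulin, was higher by 0.70 ± 0.14, though it has close paralogs between which reads could be split. CEP192, a centrosome scaffold, was lower, with 17.9 and 17.7 CPM in blue_42, against 30.9 and 38.9 CPM in dark_42 and 15.7 to 22.6 CPM in earlier dark.

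In glycan synthesis, B3GALT5, which adds galactose in beta-1,3 linkage to glycans, had the largest negative difference above 10 CPM. It stood at 1.81 and 1.70 CPM in blue_42, against 12.9 and 13.4 CPM in dark_42, with dark_3 at 2.38 and 2.30 CPM and dark_14 at 11.5 and 7.54 CPM. Dark_42 lay above and blue_42 below every earlier dark library (log2 difference -2.90 ± 0.28, edgeR adjusted p = 7.81e-06). The antisense gene B3GALT5-AS1 was called lower as well, and without a stated strand setting its reads cannot be told apart from those of B3GALT5. ALG11, a mannosyltransferase of N-glycan precursors, was higher by 0.72 ± 0.16. Of 42 tested Golgi glycosyltransferase and mucin-type glycan genes, B3GALT5 was the called member, and the list's median was -0.03.

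Surface proteases gave 5 calls, and dark_42 alone departed in each, as in 114 of all 158 called genes. PLAUR, the urokinase receptor that focuses plasminogen activation at the cell surface, had 37.4 and 42.0 CPM in blue_42, against 25 and 22.4 CPM in dark_42, with 30.0 to 50.7 CPM in earlier dark. The sheddase ADAM19 was higher by 0.73 ± 0.15 and the serine protease PRSS12 lower, by -0.70 ± 0.17.

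All 12 called genes of lipid and intermediary metabolism were higher in blue_42, as were 108 of the 158 called genes of any function. FASN, the fatty acid synthase, had 398 and 435 CPM in blue_42, against 280 and 293 CPM in dark_42, with dark_3 at 275 and 281 CPM and dark_14 at 390 and 394 CPM. Each group thus matched one of the earlier dark groups, and neither departed from their mean. DHRS1, a short-chain dehydrogenase, had 92.2 and 115 CPM in blue_42, against 47.3 and 45.5 CPM in dark_42, with 84.4 to 153 CPM in earlier dark. In 10 of the 12 genes dark_42 alone departed, and in none did blue_42. The metal-binding metallothionein MT1X was among them at 0.55 ± 0.14, and on the list of 32 cholesterol and fatty acid synthesis genes 2 were called, FASN among them, at a median of 0.07.

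Transcription and chromatin gave 13 calls higher and 5 lower. KLF4, a transcription factor of epidermal barrier formation, had 15.6 and 17.5 CPM in blue_42, against 32.4 and 32.4 CPM in dark_42, with dark_3 at 14.4 and 14.7 CPM and dark_14 at 28.4 and 24.5 CPM. Blue_42 stood near dark_3 and dark_42 above dark_14 (log2 difference -0.97 ± 0.15, edgeR adjusted p = 0.00275), and KLF4 was the called member among 38 epidermal transcription factors, whose median was 0.02. MED24, a subunit of the Mediator complex, had 95.2 and 86.2 CPM in blue_42, against 51.7 and 39.8 CPM in dark_42, with 106 to 134 CPM in earlier dark. Both groups departed downward, and of 32 Mediator genes it was the called one. TRPS1, a GATA-type repressor, had 8.91 and 9.83 CPM in blue_42, against 3.20 and 2.47 CPM in dark_42, with dark_3 at 0.159 and 0.72 CPM and dark_14 at 2.86 and 3.32 CPM.

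SFMBT2, a Polycomb-group protein, was low, with 1.03 and 0.728 CPM in blue_42, against 5.12 and 5.20 CPM in dark_42, and 1.72 to 3.01 CPM in earlier dark. BHLHE41, a repressor in the circadian clock, had 79.9 and 102 CPM in blue_42, against 61.7 and 64.0 CPM in dark_42, with 47.2 to 97.4 CPM in earlier dark, and was the called member of 16 opsin, cryptochrome and clock genes. Blue_42 alone departed there, by 0.47 from the mean of earlier dark, although its a library lay within the earlier dark range. Dark_3 held 51.1 and 47.2 CPM and dark_14 97.4 and 80.7 CPM. Against dark_14 alone BHLHE41 was lower in dark_42, by -0.49 ± 0.13 (edgeR adjusted p = 0.0271), and blue_42 was not called. The deacetylase HDAC7 and the nucleosome remodelling subunit MTA2 were higher by 0.73 ± 0.13 and 0.65 ± 0.14, each with dark_42 alone departing. The demethylase KDM6A was lower, by -0.56 ± 0.13. The histone genes H1-2 and H2BC7 were called lower, and members of that family share near-identical sequence.

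In cell cycle, DNA replication and repair, 7 called genes were higher and 1 lower. Dark_42 alone departed in all 8, as in 114 of the 158 called genes. SFN, 14-3-3 sigma, a keratinocyte protein that restrains cell cycle entry into mitosis, had 1216 and 1296 CPM in blue_42, against 930 and 745 CPM in dark_42, with 1399 to 1484 CPM in earlier dark. CKS1B, a cyclin-dependent kinase partner, and UBE2C, a ubiquitin-conjugating enzyme of mitotic exit, were higher by 0.64 ± 0.13 and 0.72 ± 0.16, while RMI1, which acts in resolving recombination intermediates, was lower by -0.58 ± 0.12. Of 37 genes for double-strand break and fork repair, edgeR and DESeq2 called 0, 4 had an unadjusted edgeR p under 0.05, all lower, and 6 had a positive log2 difference, at a median of -0.16. Of 43 G2/M and mitosis genes UBE2C was called higher and CEP192 lower, at a median of -0.11.

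In RNA processing and the ribosome, the ribosomal protein gene RPS29 had 3111 and 3399 CPM in blue_42, against 2426 and 1826 CPM in dark_42, with 3342 to 3536 CPM in earlier dark. RPS25 went the other way, with 634 and 687 CPM in blue_42, against 871 and 994 CPM in dark_42 and 588 to 611 CPM in earlier dark. The 72 ribosomal protein genes had a median of 0.01, edgeR called 1 higher and 1 lower and DESeq2 1 higher and 2 lower, and their processed copies make counts of single members uncertain. The splicing factors SNRPD3 and SF3B4 and the RNA-binding protein ELAVL1 were higher by 0.68 ± 0.13, 0.77 ± 0.16 and 0.63 ± 0.14.

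Ubiquitin, SUMO and folding genes were higher in 7 of 8 calls, among them SUMO3, a protein modifier, at 0.61 ± 0.13, and LRRC41, a substrate receptor of ubiquitin ligases, at 1.07 ± 0.19. LRRC41 had 33.7 and 31.4 CPM in blue_42, against 19.1 and 12 CPM in dark_42, with 24.8 to 30.2 CPM in earlier dark. All 3 called genes of the nuclear envelope were higher with a dark_42 departure. They were SUN2, a linker to the cytoskeleton, NUP93, a nuclear pore scaffold, and CTDNEP1, a phosphatase. CTDNEP1 had 370 and 357 CPM in blue_42, against 227 and 171 CPM in dark_42, with 295 to 374 CPM in earlier dark. Channels, transporters and membrane shape gave 5 calls in each direction, with the anoctamin ANO8 at 1.39 ± 0.23 and the potassium channel KCNK1 at -0.49 ± 0.11.

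The genes in which blue_42 alone departed were few and spread over functions. The 10 higher ones were BHLHE41, CLDN1, C1orf21, CPNE8, SH3KBP1, EFNA1, SAP30-DT, CALD1, LCP1 and PPP4R4, and the 7 lower ones were PPM1L, SASH1, EPB41L4A, LIMCH1, LUZP2, ADAM23 and PLAAT4. This class was set against the mean of dark_3 and dark_14, and for BHLHE41 and CLDN1 blue_42 was not called against dark_14 alone. In PLAAT4 both blue_42 libraries lay above dark_3 and below dark_14. Those in which both groups departed were SFRP1, OLFM4, PI3, TRPS1, BASP1, MED24, R3HDM4 and B3GALT5. In SFRP1, OLFM4 and B3GALT5 the groups departed in opposite directions, and in the other 5 in the same direction.

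Called genes differed from the rest in base composition. The median GC content of their transcripts was 52.5% for genes higher and 44.1% for genes lower in blue_42, against 48.3% over all tested genes, and their median lengths were 2916 and 4666 bases, against 3284. Over all tested genes the lowest GC quartile had a median log2 difference of -0.05 and the highest of 0.04. Against earlier dark, blue_42 stood at 0.03 in the lowest and -0.02 in the highest quartile, and dark_42 at 0.10 and -0.06. With transcript GC as an offset in the fit, 144 of the 158 genes were called, and 168 in all.

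Position along chromosomes also separated the groups. With each chromosome divided at its widest gap between tested genes, 43 segments held at least 40 tested genes, a division made after the data were seen. The 3 lowest medians of blue_42 against dark_42 were in the first segment of chromosome 18 at -0.32 (48 genes), the second of chromosome 9 at -0.18 (410 genes) and the first of chromosome 7 at -0.16 (220 genes). The next lowest was -0.08 and the highest 0.08. In these segments 79.2%, 77.3% and 74.1% of genes lay below 0, against 50.5% of all tested genes. On chromosome 9 it was blue_42 that stood off, at -0.15 and -0.18 against earlier dark, with dark_42 at 0.04 and 0.02. On chromosome 18 dark_42 stood higher, at 0.44 and 0.42, with blue_42 at 0.15 and 0.10, and on chromosome 7 dark_42 stood at 0.17 and 0.12, with blue_42 at -0.02 and -0.03.

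**Figure D5:**
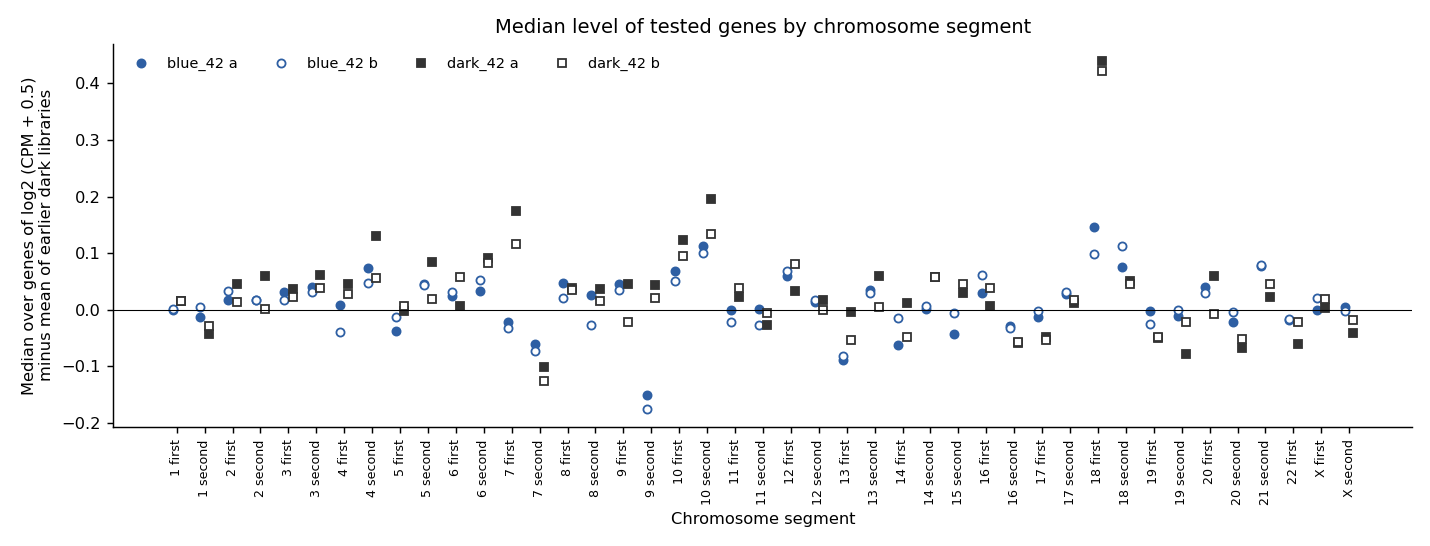
Median over tested genes of log2 (CPM + 0.5) minus the mean of the 4 earlier dark libraries (vertical axis) in each of 43 chromosome segments (horizontal axis), with circles for blue_42 and squares for dark_42, filled for a and open for b. The second segment of chromosome 9 is low in both blue_42 libraries, at -0.15 and -0.18, and the first of chromosome 18 is high in both dark_42 libraries, at 0.44 and 0.42.

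Since the segments were picked by this difference, more lower and fewer higher calls in them follow from the choice and are given as a description. These 3 segments held 5.26% of tested genes, 10 of the 50 genes called lower (20%) and none of the 108 called higher. The 10 were CEP192 on chromosome 18, KLF4, DNM1, FBXW2, MFSD14B, STRBP and RMI1 on chromosome 9, and RAPGEF5, PRR15 and HOXA10-AS on chromosome 7. Their log2 differences ran from -0.97 for KLF4 to -0.47 for HOXA10-AS. DNA copy number was not measured, so its part in these levels was not tested.

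At earlier irradiation numbers no call was made in the same genes. EdgeR and DESeq2 called 0 of the 158 between blue_3 and dark_3 and between blue_14 and dark_14, comparisons that share no library with the one at 42 and in which edgeR called 0.0155% and 0% of all tested genes. The blue_14 libraries held 3517401 and 2073160 counts, fewer than those at 42. Their a minus b spread was the widest of the groups, with an SD of 0.349 on the log2 scale. The lack of calls at 14 thus does not show that differences were absent. At an unadjusted edgeR p under 0.05, of the genes higher at 42, 12 were higher and 10 lower at 3 irradiations, and 11 were higher and 3 lower at 14. Of the genes lower at 42, 6 were higher and 1 lower at 3, and 0 were higher and 8 lower at 14. Of all tested genes 4.35% were higher and 2.57% lower at 3 by this rule, and 2.84% and 3.04% at 14. Of the 108 higher genes, 51 had a difference in the same direction at 3 irradiations and 71 at 14, and of the 50 lower genes 20 and 39. Over all tested genes 52.4% were above 0 at 3 and 48.6% at 14. The medians were -0.02 and 0.08 for the higher genes and 0.03 and -0.12 for the lower genes, against medians of 0.70 and -0.77 at 42. The light effect itself differed between 42 and 3 irradiations in 41 of the 158 genes (0.435% of all tested genes), and between 42 and 14 in 6 (0.0544%). That contrast holds the blue_42 minus dark_42 difference by which the 158 genes were chosen. A larger share than over all tested genes thus follows in part from the choice, and these counts are given as a description.

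Several genes fixed whatever their values were not called. HMOX1, the haem oxygenase that oxidants induce, had 1.94 and 2.43 CPM in blue_42, against 2.05 and 2.47 CPM in dark_42. CDKN1A, the cell cycle inhibitor p21, had 61.6 and 76.7 CPM in blue_42, against 68.4 and 75.4 CPM in dark_42. In both genes the groups overlapped. The proliferation antigen MKI67 had 985 and 972 CPM in blue_42, against 1176 and 1016 CPM in dark_42. The blue-light opsin relative OPN3 had 40.5 and 39.1 CPM in blue_42, against 32.4 and 30.7 CPM in dark_42, with 47.4 to 59.6 CPM in earlier dark (log2 difference 0.34 ± 0.13, edgeR adjusted p = 0.228), so that both groups lay below earlier dark. The differentiation genes IVL and KRT10 differed by -0.01 ± 0.15 and 0.05 ± 0.19, the basal keratin KRT5 by 0.60 ± 0.25, the epidermal master regulator TP63 by 0.09 ± 0.13 and the barrier gene FLG by 0.55 ± 0.16. Just inside the threshold lay IFIT3, MT1X and SH3BP5L, at adjusted p = 0.0493, 0.0493 and 0.049, and just outside it RASEF, ZNF706 and REX1BD, at 0.0501, 0.0501 and 0.0503.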

How the data were processed

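Transcripts of 12 HaCaT libraries (6 groups of 2, from the titles) were measured by QuantSeq 3' mRNA-Seq FWD. The authors deposited raw, whole-number counts of reads for each gene, and per the submitters' processing notes these came from STAR and featureCounts on GRCh38. The sources used here do not name versions, annotation release or strand setting.

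Of 45372 rows, 22754 had a count and 12878 passed filterByExpr (minimum count 10). One edgeR 4.0.16 quasi-likelihood model in R 4.3.3 (TMM, robust, 6 group means, 6 residual degrees of freedom) gave two-sided tests, with Benjamini-Hochberg adjustment over the 12878 genes, and genes were called under 0.05. The median SE of genes above 10 CPM was 0.139 on the log2 scale, and 3 counts equal 0.367 to 0.842 CPM by plain totals in the libraries compared. CPM of single genes use TMM-scaled totals, and marker sums use plain ones. Since labels do not say that libraries are separate cultures, p-values measure the spread between libraries, which may be technical. Any called gene could be named under its function, with full values for the largest differences of a function at or above 10 CPM in the higher group. The 10 largest each way, called list members and 13 fixed genes were also to be named. Some genes that this would name are not reported here. Function groups were assigned after values were seen. The members and lists were chosen with earlier results of these data known. Positions came from GENCODE 29 and promoters from RefSeq GRCh38.p14. The scripts were tested on simulated data. Alternatives were RLE and upper-quartile scaling, DESeq2 1.42.0, other filters, a replicate block, non-robust fits, fewer libraries and other departure rules.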

Additional observations from a re-analysis of the deposited data

Results flagged for a closer look

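The effect of light at 42 irradiations differed from that at an earlier number in a test of the difference itself, an interaction contrast in the same edgeR model, for 41 called genes against 3 irradiations and 6 against 14. Values are log2 differences of the effects, 42 minus the earlier number. Each holds the difference at 42 by which the called genes were chosen, so their number and sign follow in part from that choice. Against 14 irradiations all 6 genes had the more positive effect at 42, among them CDH2 at 0.95, MED24 at 1.15, CALD1 at 1.5, OLFM4 at 1.56 and SFRP1 at 2.80, at adjusted p = 0.000335 for SFRP1 to 0.0442.

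Against 3 irradiations 24 called genes had the more positive effect at 42. Among these were SFRP1 at 3.39, LCP1 at 2.82, OLFM4 at 1.81, LRRC41 at 1.51, PTK7 at 1.21, SAMD10 at 1.21, CTDNEP1 at 1.16, EFNA1 at 1.14, SF3B4 at 1.10, MED24 at 1.10, METRNL at 1.06, NPM3 at 1.04, CRTAP at 1.03, RFWD3 at 1.02, TBCB at 1.01, SNRPD3 at 0.99, SOX13 at 0.98, TUBB at 0.96, NUP93 at 0.96, ELAVL1 at 0.96, FHOD1 at 0.93, DNPH1 at 0.90 and LYPLA2 at 0.89. FLG, the filaggrin gene, was not called at 42 and differed by 1.39 as well. The 17 with the more negative effect included B3GALT5 at -2.89, SFMBT2 at -2.87, BMP3 at -1.62, CEACAM6 at -1.51, ISG15 at -1.38, EPB41L4A at -1.30, H2BC7 at -1.21, SASH1 at -1.19, CEP192 at -1.13, LIMCH1 at -1.10, PLAAT4 at -1.02, DDX60 at -0.99, RIGI at -0.98, IL7R at -0.86, IFIT2 at -0.80 and OASL at -0.76. Adjusted p-values ran from 2.51e-07 for SFRP1 to 0.0435 for IFIT2.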

How the results depend on the processing

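Of the 158 called genes none reversed its direction in any fit run. RLE scaling called 164 genes, upper-quartile scaling 157, DESeq2 179, the filter at 5 CPM 168, non-robust estimation 152 and the GC offset, added after the data were seen, 168. Without a filter 420 were called (310 higher, 110 lower), of which dark_42 alone departed in 277, blue_42 alone in 45, both in 27 and neither in 71, and 733 departed in blue_42. With only the compared libraries 100 were called and 26 were lower, with 5 in both and 3 in neither. Of the 158 genes, 81 kept their call in that fit and 77 lost it. Without the 14-irradiation libraries 246 were called, 173 higher, and 2585 departed in dark_42 and 1587 in blue_42, with 34 called genes in blue_42 alone, 37 in both and 31 in neither. Against dark_3 alone 1296 departed in blue_42 and 18 called genes in both. Against dark_14 alone 271 departed in blue_42 and 907 in dark_42, with 36 in neither. At an adjusted p under 0.1 for departure these were 761, 2474 and 1, and at an unadjusted p under 0.05 they were 2081, 3598 and 0, with 47 in both.

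Leaving out each library in turn gave 24 to 235 calls, 16 to 179 higher and 8 to 64 lower, with 89 to 598 departures in blue_42 and 480 to 1841 in dark_42. Called genes that departed numbered 3 to 24 in blue_42 alone, 17 to 189 in dark_42 alone, 2 to 16 in both and 0 to 30 in neither. Their share farther in dark_42 was 62.5% to 90.2%, against 51.9% to 67.9% of all tested genes. A group left with 1 library was assumed to vary like the others.

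The letters a and b are not said to pair libraries, and the a minus b deviations of blue_42 and dark_42 correlated at 0.405 over genes. The replicate block on all libraries called 169 genes, and with only the 4 compared libraries, a fit added later, 1056 (671 higher, 385 lower). With 2 libraries a group, small differences lie below what this depth and spread can show.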
